A study of Mus musculus with 48 samples.

Results

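The natriuretic peptides and their receptors are 4 of the 8251 gene symbols in these data, read by 6 of the 12422 probe sets of the MG-U74Av2 mouse array, a chip on which each probe set is a group of short probes for 1 or more transcripts. The members were all probe sets whose platform gene symbol is Nppa, Nppb, Npr1 or Npr3. They are 103593_at for Nppa, 104184_at for Nppb, 100035_at for Npr1, and 160989_r_at, 97711_at and 99806_at for Npr3. Each was followed over 48 arrays, 1 per tissue sample, from heart, lung, liver and spleen of A/J and C57BL/6J mice, both inbred strains, at time 2 and time 1, with 3 arrays in each of the 16 groups. All animals were male and 3 months old, the 3 replicates of a group were littermates, and the labels name no treatment, transgene or mutation. Tissue was homogenized whole, so each array reads all cell types of its sample. What the 2 times stand for and whether a mouse gave more than 1 tissue are not given in the sources used here. Nor is the number of litters, so p-values measure the spread between these animals. Since the replicates of a group were littermates, a strain difference at a time cannot be told from a difference between litters. Values are the deposited log2 signals, called levels below. A difference is A/J minus C57BL/6J, time 2 minus time 1 or one tissue minus another on that log2 scale. It is given with its standard error (SE) from limma and an adjusted p from limma with the Benjamini-Hochberg correction over all 12422 probe sets. A difference with an adjusted p below 0.05 is said to pass the test.

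Nppa encodes atrial natriuretic peptide and Nppb encodes brain natriuretic peptide, hormones that heart muscle cells release into the blood when the chamber walls are stretched. In the adult the atria are the main source of atrial natriuretic peptide, and the ventricles raise both genes under load, so Nppa and Nppb are widely read as stretch and fetal-programme genes. Both peptides bind Npr1, a membrane guanylate cyclase that makes cGMP, and so promote salt excretion and relax vessels. Npr3, the clearance receptor, lacks the cyclase and takes the peptides up for breakdown, and it is known in lung, kidney, vessels and endocardium.

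Both peptide genes lie on mouse chromosome 4, where the RefSeq gene table has 0 genes between them. Their promoters are shown because these neighbours were the members higher in heart than in all 3 other tissues. Each is the 250 bases before the transcript start from RefSeq on build GRCm38.p6, plus strand, 5′ to 3′. Nppa is at chr4:148000472-148000721 and Nppb at chr4:147985650-147985899. Capitals mark matches on either strand to 5 sets of letters. They are TATAAA, the letters of the TATA box, GATAA, read by Gata4 and its kin, GTGTGA, read by T-box factors, CATTCC, read by TEAD factors, and AAGTG, the core read by Nkx2-5.
Nppa: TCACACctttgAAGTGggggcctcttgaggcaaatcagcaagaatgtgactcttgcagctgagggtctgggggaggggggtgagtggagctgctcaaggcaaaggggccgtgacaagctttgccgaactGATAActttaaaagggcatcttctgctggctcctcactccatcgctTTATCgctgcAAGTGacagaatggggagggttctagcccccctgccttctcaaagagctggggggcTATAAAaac
Nppb: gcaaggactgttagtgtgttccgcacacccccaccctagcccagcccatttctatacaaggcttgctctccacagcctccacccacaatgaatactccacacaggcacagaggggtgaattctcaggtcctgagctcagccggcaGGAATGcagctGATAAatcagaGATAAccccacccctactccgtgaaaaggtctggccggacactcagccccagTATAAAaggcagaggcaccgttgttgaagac

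Both promoters hold TATAAA, which ends 4 bases before the start in Nppa and 26 bases before it in Nppb. Both hold GATAA 2 times. In Nppa these begin 121 and 75 bases before the start, the second as TTATC on the other strand, and in Nppb they begin 94 and 83 bases before it. Of 32851 RefSeq mouse promoter windows of 250 bases, 12.4% hold TATAAA, 4.28% hold GATAA at least 2 times, and 0.938% hold both. The letters GTGTGA and AAGTG match in the Nppa window only, and CATTCC in the Nppb window only. Such windows are common, at 12.3%, 40.7% and 12.6% of all, and none of the matches overlaps another. A match is a description of letters and not a site of binding.

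The 4 array runs set what each comparison can show. Array names place the livers and lungs of time 1 in 1 run, the spleens and the hearts of that time in separate runs, and every sample of time 2 in the last. A/J and C57BL/6J arrays of a tissue and time always came from the same run, so a strain difference is a difference within runs. Within a tissue, time and run cannot be told apart. Between tissues, only lung and liver shared a run at time 1. Every other tissue difference over 48 arrays thus holds a difference of run at time 1. At time 2 all tissues shared 1 run. The medians of the 48 arrays lay between 8.87 and 9.02. The hearts carried the muscle markers Myh6, Myl2, Myl3 and Tnnt2 at levels of 14.23 to 14.72, close to the highest value of any probe set (14.72), and the lungs carried the surfactant gene Sftpc and the club cell gene Scgb1a1 at 14.15 to 14.54. Levels of different probe sets are not compared with each other.

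**Figure D1:**
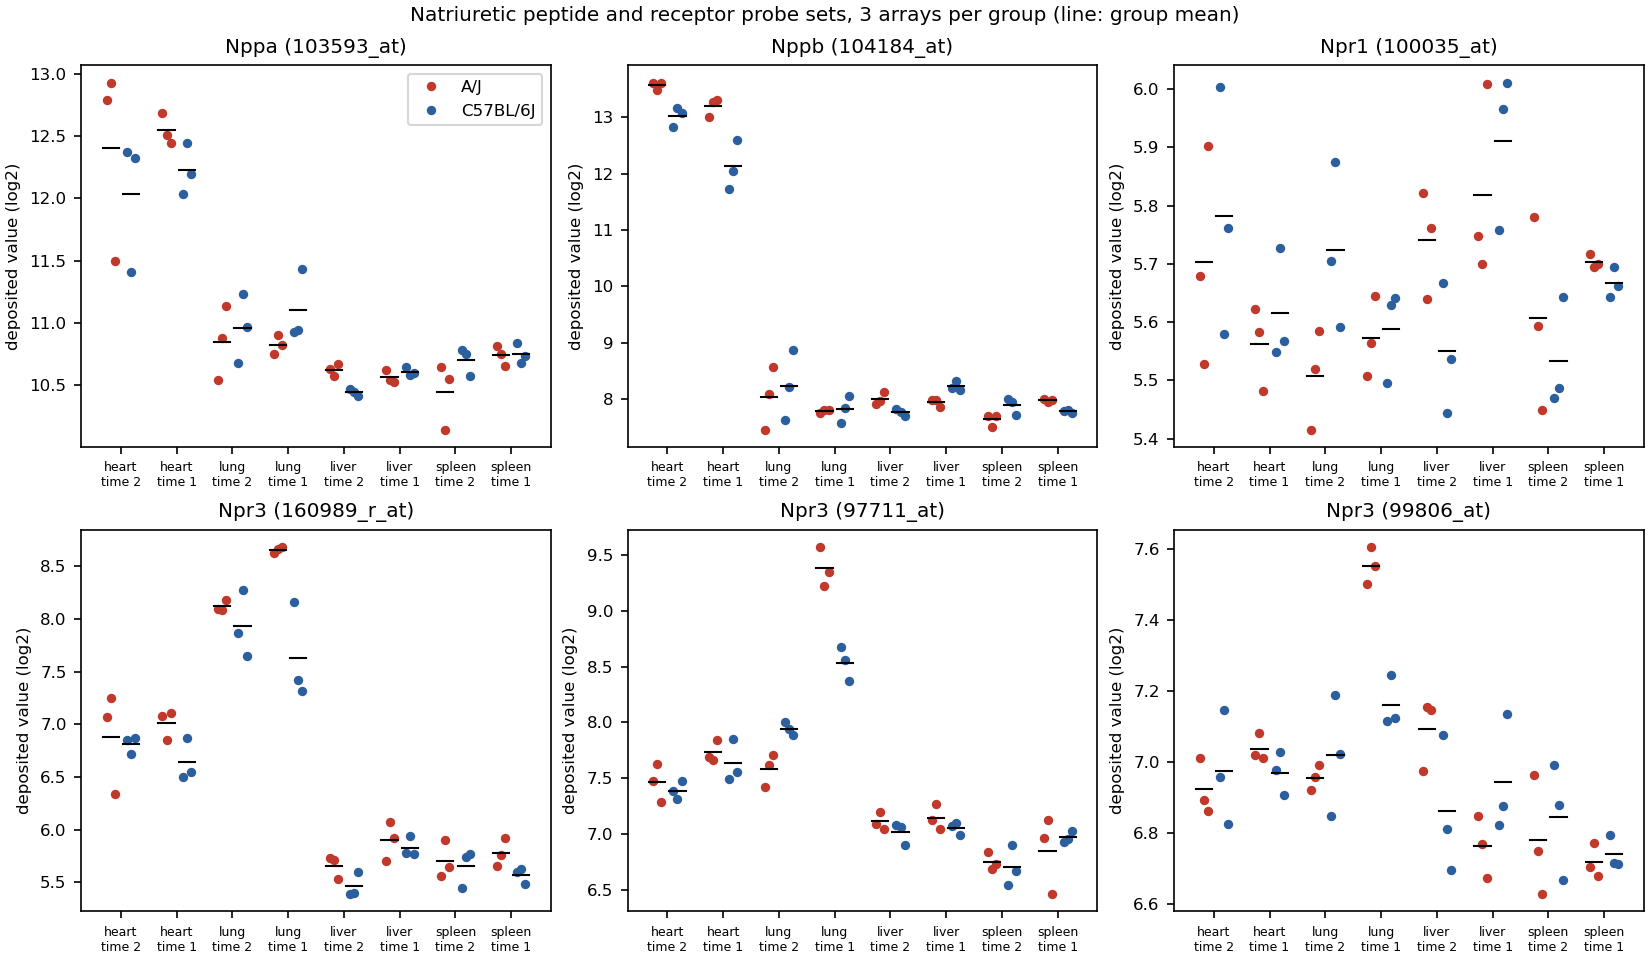
Deposited log2 level of each of the 6 probe sets (vertical axes, each with its own range) in every array, by tissue and time (horizontal axis). Points are arrays, red for A/J and blue for C57BL/6J, and lines are means of 3. Nppb stands at 11.74 to 13.62 in the hearts and at 7.46 to 8.87 elsewhere, Npr3 is highest in A/J lungs at time 1, and Npr1 spans 5.42 to 6.01 in all arrays.

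Nppb was the member that separated heart from the other tissues most widely, and it was higher in A/J hearts than in C57BL/6J hearts. Its 12 heart levels ranged from 11.74 to 13.62 with a median of 13.12, against 7.46 to 8.87 with a median of 7.88 in the 36 arrays of lung, liver and spleen. The groups did not overlap. The heart mean of 12.98 ± 0.59 exceeded that of lung (7.97 ± 0.41) by 5.01, that of liver (7.99 ± 0.19) by 5.0 and that of spleen (7.83 ± 0.15) by 5.16 (SD, n = 12 each; SE 0.10), a ratio of 31.9-fold to 35.6-fold on the linear scale, with limma adjusted p of 1.56e-34, 6.14e-35 and 3.42e-35. In bulk tissue, fewer cells of a type and less RNA per cell cannot be told apart. Lung, liver and spleen did not pass the test against each other for Nppb, with differences of -0.01 to 0.16. Without replicate 1 of every group lung exceeded spleen by 0.36 (adjusted p = 0.00124), and without replicate 3 lung minus liver was -0.20 (adjusted p = 0.0430), and both passed.

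For the 6 members, 5 passed the test between heart and lung (2 higher and 3 lower in heart), 4 between heart and liver (all higher in heart) and 5 between heart and spleen (all higher in heart). The share of all probe sets that passed was 77.1% between heart and lung, 66.9% between heart and liver and 74.7% between heart and spleen, so these counts are near the background.

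The strain difference of Nppb in heart had the same direction at both times. At time 2 Nppb read 13.61, 13.48 and 13.62 in A/J hearts, against 12.83, 13.16 and 13.07 in C57BL/6J hearts. At time 1 it read 13.00, 13.28 and 13.31 in A/J hearts, against 11.74, 12.06 and 12.61 in C57BL/6J hearts. At each time every A/J heart was above every C57BL/6J heart. Over both times A/J hearts averaged 13.38 ± 0.24 and C57BL/6J hearts 12.58 ± 0.57 (SD, n = 6 each), a difference of 0.81 (SE 0.13, adjusted p = 0.00149), or 1.75-fold. It was the 1 member of 6 that passed in heart, where 7.48% of all probe sets passed.

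Taken by time, the Nppb difference was 0.55 (SE 0.17, adjusted p = 0.0832) at time 2 and 1.06 (SE 0.17, adjusted p = 0.00269) at time 1. In the same tests 5.23% of probe sets passed at time 2, with 0 of 6 members and 1 at an unadjusted p below 0.05, and 4.7% at time 1. With the 6 hearts of time 2 fitted alone the difference there passed (adjusted p = 0.0106), as it did without C57BL/6J replicate 1 or replicate 3 of time 1 (adjusted p = 0.0356 and 0.0138). The change of the strain difference between the times was -0.51 (SE 0.24, adjusted p = 0.468) and did not pass, as for 0 of 6 members by limma (1 at an unadjusted p below 0.05), where 0.386% of all probe sets passed.

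Nppb was also higher in hearts at time 2 than at time 1, by 0.63 (SE 0.13, adjusted p = 0.00285), at 13.30 ± 0.32 against 12.67 ± 0.65 (SD, n = 6 each). Of the members 2 passed this test, the other being Npr3, and 34.9% of all probe sets passed. Since each time had its own run for heart, the difference between times cannot be told from a difference between runs.

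The strain difference of Nppb depended on the tissue. It was 0.81 in heart, -0.12 in lung (SE 0.20), -0.03 in liver (SE 0.09) and -0.03 in spleen (SE 0.09). The test that it is the same in all 4 tissues gave F = 8.43 with an adjusted p of 0.0022. Nppb was the 1 member of 6 to pass it, against 18.5% of all probe sets. Outside heart Nppb stood at 7.46 to 8.87, with no known distance from background, so a strain difference there may be unreadable. The test uses 1 spread for all tissues, while the SD of Nppb ran from 0.15 in spleen to 0.59 in heart (n = 12 each).

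Nppa was high in heart too, but its level went with atrial muscle markers heart by heart. At time 2 it read 12.79, 12.93 and 11.49 in A/J hearts, against 12.38, 11.41 and 12.33 in C57BL/6J hearts. At time 1 it read 12.68, 12.51 and 12.45 in A/J hearts, against 12.04, 12.45 and 12.19 in C57BL/6J hearts. A single heart of each strain at time 2 stood about 1 log2 unit below its group, and the strains overlapped at both times. The strain difference was 0.34 (SE 0.22, adjusted p = 0.427), with means of 12.47 ± 0.51 for A/J hearts and 12.13 ± 0.38 for C57BL/6J hearts (SD, n = 6 each), with 0.37 at time 2 and 0.32 at time 1. Its 95% confidence interval ran from -0.12 to 0.81.

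The same 2 hearts were the lowest in Myl7, the atrial myosin regulatory light chain. At time 2 Myl7 read 14.01, 13.70 and 11.30 in A/J hearts, against 13.01, 10.64 and 13.02 in C57BL/6J hearts. At time 1 it read 13.79, 13.43 and 13.62 in A/J hearts, against 11.90, 12.93 and 12.13 in C57BL/6J hearts. Myl4, the atrial essential light chain read by 160487_at, was likewise lowest in these hearts, at 10.08 in A/J replicate 3 and 9.62 in C57BL/6J replicate 2 of time 2, and 11.77 to 13.45 in the others. The C57BL/6J heart was also high in the lung markers Scgb1a1 (12.61) and Sftpc (9.78), against at most 9.5 and 8.96 in the other hearts of time 2. The ventricular chain Myl2 was 14.47 to 14.72 in all 12, at the top of the scale, where a difference between hearts cannot be read.

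Over the 12 hearts Nppa followed the mean of 5 atrial markers (Myl7, Sln, Bmp10, Gja5 and Myl4 by 100828_at) with Pearson r = 0.970 and Spearman rho = 0.944, permutation p = 2e-05 and 4e-05. The value of 2e-05 is the smallest the resampling can give. Adjusted over the 24 tests made for 6 such relations, these were 0.00012 and 0.00048. Without the 2 hearts farthest from the median of the marker mean, which are the same 2, r was 0.932 (permutation p = 0.00012, n = 10). Within the runs r was 0.989 at time 2 (exact permutation p = 0.00278, the smallest that 6 hearts allow) and 0.863 at time 1 (exact permutation p = 0.0333, adjusted 0.0571). Of these markers, Sln, Bmp10 and Gja5 had heart medians of 8.52, 6.85 and 10.07, below their liver medians of 8.68, 6.90 and 10.22. Across hearts Myl7 ran from 10.64 to 14.01 and Myl4 by 100828_at from 10.33 to 10.85, so Myl7 set most of the spread of the mean.

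Against Myl7 alone r was 0.959, and against Myl4 by 160487_at it was 0.986 (permutation p = 2e-05 for both, n = 12, chosen after the data were seen). In the atrial list 0 of 5 genes passed the strain test by limma, with 2 at an unadjusted p below 0.05. Its mean level was 9.43 to 10.07 in A/J hearts and 9.25 to 9.81 in C57BL/6J hearts, and Myl7 differed by 1.04 (SE 0.46, adjusted p = 0.218). Without the 2 hearts lowest in Myl7, also left out after the data were seen, the Nppa strain difference was 0.40 (SE 0.08) and passed (adjusted p = 0.0127). These 2 hearts were also the lowest in Nppa, so the pass follows a choice tied to Nppa itself and gives no further support. The part of atrial muscle in the Nppa strain difference was not tested.

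**Figure D2:**
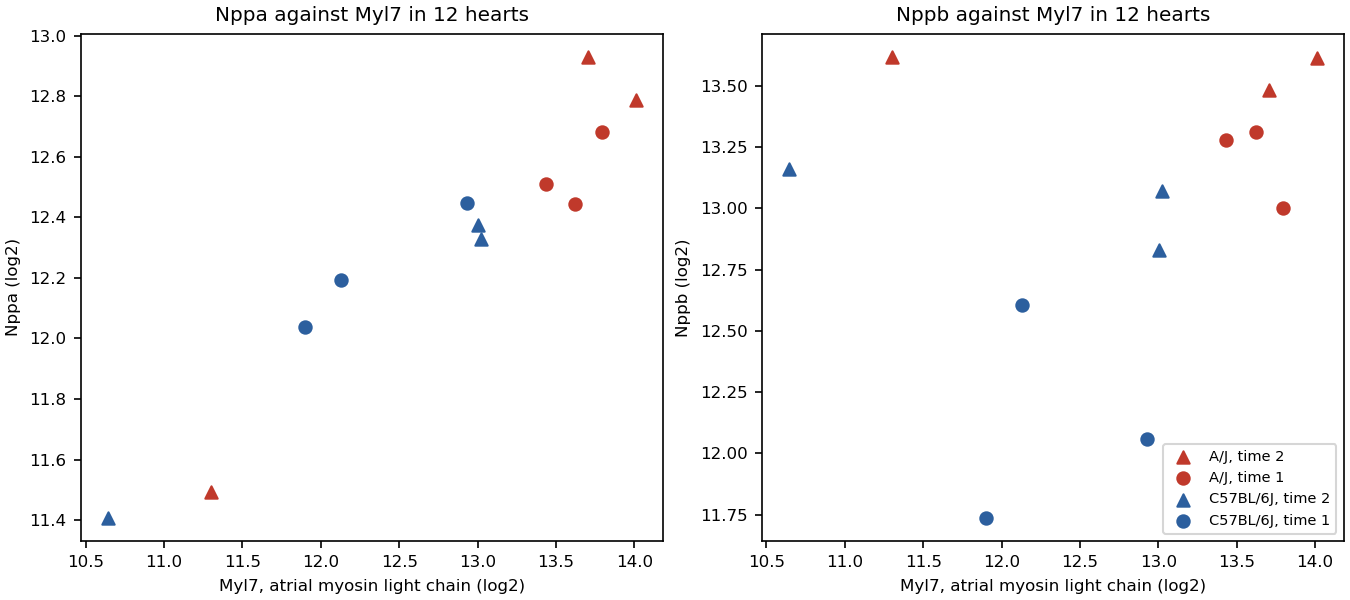
Level of Nppa (left) and Nppb (right) in 12 hearts (vertical axes, log2) against that of the atrial light chain Myl7 (horizontal axes, log2). Triangles are time 2, circles time 1, red A/J and blue C57BL/6J. The 2 hearts lowest in Myl7 (11.30 and 10.64) have the lowest Nppa (11.49 and 11.41) but Nppb of 13.62 and 13.16.

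Nppb did not share this pattern over all hearts. Its r with the atrial marker mean was 0.216 (permutation p = 0.492, rho = 0.343, n = 12), and the 2 hearts lowest in Myl7 had Nppb at 13.62 and 13.16, the highest of their groups. Without them r was 0.843 (permutation p = 0.0019, adjusted 0.00651, n = 10). It was 0.171 at time 2 (exact permutation p = 0.717) and 0.821 at time 1 (exact permutation p = 0.0722), so the low r over 12 hearts rests on those 2. These correlations pool the strains, which differed in Nppb. In the 10 hearts Myl7 was 13.43 to 14.01 in A/J and 11.90 to 13.02 in C57BL/6J, with no overlap. The r of 0.843 thus cannot be told from the strain difference. Without the 2 hearts lowest in Myl7 the Nppb strain difference was 0.88 (SE 0.15, adjusted p = 0.00403).

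A marker of another tissue differed in level among the hearts. Scgb1a1, the secretory protein of airway club cells, read 9.5, 9.12 and 8.94 in A/J hearts and 8.87, 12.61 and 8.79 in C57BL/6J hearts at time 2, and 10.42, 11.72 and 9.88 in A/J hearts and 11.92, 13.81 and 13.30 in C57BL/6J hearts at time 1. At time 1 the Nppb strain difference was 1.06, and 4.7% of all probe sets passed. Of 6 lung epithelium markers 3 passed by limma, lower in A/J hearts (4 at an unadjusted p below 0.05), with a median difference of -0.32 over the list. These were the surfactant genes Sftpc at -1.43 (adjusted p = 0.0241) and Sftpb at -0.29 (adjusted p = 0.0426), and Ager, a receptor of alveolar cells, at -0.36 (adjusted p = 0.0200). The mean level of the list at time 1 was 9.66 to 10.06 in A/J hearts and 10.24 to 10.90 in C57BL/6J hearts, with no overlap. At time 2 it was 9.48 to 9.62 in A/J hearts and 9.45 to 10.33 in C57BL/6J hearts. There 0 of the 6 markers passed by limma (0 at an unadjusted p below 0.05), against 5.23% of all probe sets. Over both times 1 passed, Ager, at -0.25, against 7.48% of all probe sets. Of the list, Sftpd had medians of 7.94 in heart and 7.97 in lung, so it did not mark lung here. The part of lung tissue in the Nppb strain difference was not tested. Without the C57BL/6J heart of time 2 that was high in Scgb1a1, the one lowest in Myl7 and Nppa, Nppb at time 2 differed by 0.62 (SE 0.19, adjusted p = 0.102). For Gapdh, whose control probe sets show RNA degradation, the signal for the 3′ end exceeded that for the 5′ end by 1.34 and 1.41 in 2 A/J hearts of time 1, and by 0.083 to 0.305 in the remaining 10. Without those 2 the Nppb difference was 0.75 (SE 0.16, adjusted p = 0.0117).

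Over tissues, Nppa was lower in lung than in heart but above liver and spleen. The 12 hearts had 11.41 to 12.93 with a median of 12.41, the 12 lungs 10.54 to 11.43 with a median of 10.91, the livers 10.41 to 10.67 and the spleens 10.14 to 10.84. Heart exceeded lung by 1.37, liver by 1.74 and spleen by 1.64 (SE 0.11, adjusted p = 2.84e-14, 1.49e-17 and 8.26e-17). Heart and lung overlapped, since the C57BL/6J lung of time 1 with 11.43 was above the lowest heart. Lung exceeded liver by 0.37 (adjusted p = 0.00223) and spleen by 0.27 (adjusted p = 0.0272), and neither of these small differences passed with the 24 arrays of time 2 alone (0.37 and 0.33, adjusted p = 0.0945 and 0.157). That from spleen was also lost without replicate 2 or replicate 3 of every group (0.21 and 0.18, adjusted p = 0.151 and 0.158). Liver and spleen did not pass (-0.10, adjusted p = 0.407). The files give no detection call, so whether the level of about 10.6 in liver and spleen is transcript or background is not known.

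In mice the large pulmonary veins carry a sleeve of heart muscle, and all 12 lungs read some heart muscle genes above every liver and spleen. Myl7 was 10.80 to 12.41 in lungs, against 7.62 to 8.69 in livers and spleens, and Myh6, the alpha myosin heavy chain, was 8.59 to 10.64 in lungs, against 5.72 to 6.60. Tnnt2, cardiac troponin T, was 9.26 to 10.59 in lungs, against 6.58 to 7.35 in livers and spleens. Of the other measured cardiomyocyte markers, Tnni3, Tnnc1, Actc1 and Ryr2 were also above every liver and spleen in all lungs. Mybpc3, Ckm, Myom2 and Mb were not, and Mybpc3 had medians of 9.94 in lung, 9.96 in liver and 10.01 in spleen. The part of heart muscle in the lung levels of Nppa and Nppb was not tested. The ventricular chain Myl2 overlapped with livers and spleens (6.98 to 7.87) and stood above them in some lungs. It read 7.30, 9.48 and 9.64 in A/J lungs and 7.54, 7.32 and 12.04 in C57BL/6J lungs at time 2, against 6.66 to 8.10 in the 6 lungs of time 1. Nppb in the same order read 7.46, 8.09 and 8.56 in A/J lungs and 7.63, 8.21 and 8.87 in C57BL/6J lungs at time 2, and 7.57 to 8.06 at time 1. The lung highest in Myl2 was also the highest in Nppb.

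Over the 12 lungs Nppb had r = 0.763 with the mean of 10 cardiomyocyte markers (permutation p = 0.00978, adjusted 0.0205, chosen after the data were seen) and rho = 0.580 (permutation p = 0.0506, adjusted 0.1). Without the 2 lungs farthest from the median r was 0.525 (permutation p = 0.134, n = 10), so the relation rests on them. It was 0.763 at time 2 and 0.685 at time 1 (exact permutation p = 0.0667 and 0.158). For Nppa the relation to the same markers was r = 0.394 (permutation p = 0.219), rho = 0.517, and r = 0.287 without the 2 farthest. It was 0.273 at time 2 and 0.928 at time 1 (exact permutation p = 0.642 and 0.0806, n = 6 each). Lungs of the strains did not pass the test for Nppa (-0.19, SE 0.12, adjusted p = 0.417) or Nppb.

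**Figure D3:**
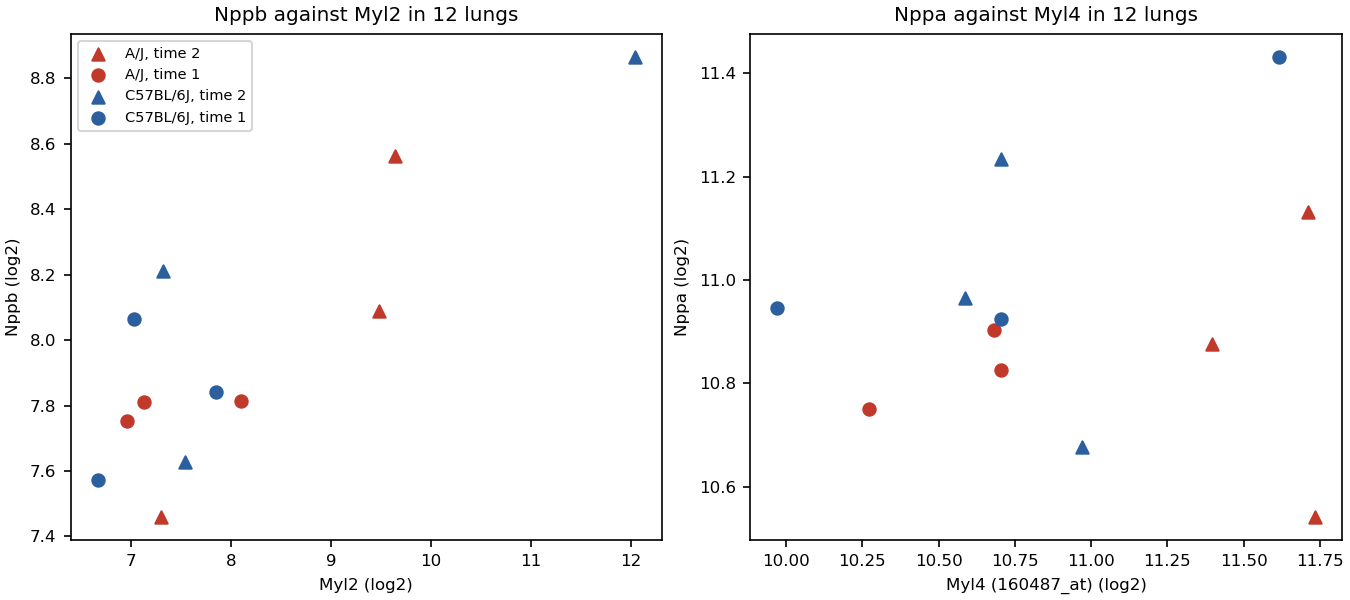
Level of Nppb against the ventricular light chain Myl2 (left) and of Nppa against the atrial light chain Myl4 (right) in 12 lungs, all log2. Triangles are time 2, circles time 1, red A/J and blue C57BL/6J. The C57BL/6J lung of time 2 with Myl2 at 12.04 has the highest Nppb (8.87).

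Of the receptors, Npr3 was highest in lung, next in heart, and lowest in liver and spleen by 2 of its 3 probe sets. By 160989_r_at, whose suffix marks a set made with relaxed probe selection rules, heart levels were 6.34 to 7.25 (median 6.86), lung levels 7.32 to 8.69 (median 8.13), liver levels 5.39 to 6.08 and spleen levels 5.44 to 5.92. Heart and lung did not overlap with each other or with liver and spleen. Heart minus lung was -1.25, heart minus liver 1.13 and heart minus spleen 1.16 (SE 0.08), and lung exceeded liver by 2.37 and spleen by 2.41, the last a ratio of 5.32-fold (adjusted p of 3.34e-15 or lower for all 5).

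By 97711_at the order was the same, with heart at 7.28 to 7.85, lung at 7.42 to 9.58, liver at 6.90 to 7.27 and spleen at 6.46 to 7.12. Heart minus lung was -0.81, heart minus liver 0.47 and heart minus spleen 0.74 (SE 0.06), and lung exceeded liver by 1.28 and spleen by 1.54, all with adjusted p of 3.67e-09 or lower. Here heart and lung overlapped. By 99806_at the spread was small, with 6.83 to 7.15 in heart, 6.85 to 7.60 in lung, 6.67 to 7.16 in liver and 6.63 to 6.99 in spleen, and lung exceeded spleen by 0.40 and liver by 0.26. With time 2 alone none of the 5 tissue differences that 99806_at passed over all arrays passed again (adjusted p = 0.0734 to 0.911). Lung against liver and lung against spleen passed for 5 and 4 of the 6 members, where 82.1% and 66.8% of all probe sets passed.

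Between liver and spleen 3 members passed, against 77.7% of all probe sets. These were Npr3 by 97711_at (0.26, adjusted p = 1.16e-04), Npr3 by 99806_at (0.14) and Npr1 (0.13).

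In lungs of time 1, Npr3 was higher in A/J than in C57BL/6J by all 3 probe sets. By 160989_r_at A/J lungs read 8.62, 8.67 and 8.69, against 8.16, 7.42 and 7.32 in C57BL/6J lungs. By 97711_at A/J lungs read 9.58, 9.23 and 9.35, against 8.67, 8.56 and 8.37 in C57BL/6J lungs. By 99806_at A/J lungs read 7.5, 7.60 and 7.55, against 7.12, 7.24 and 7.12 in C57BL/6J lungs. No A/J lung overlapped with a C57BL/6J lung by any of the sets.

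The Npr3 differences were 1.02 (SE 0.19, adjusted p = 0.00865), 0.85 (SE 0.11, adjusted p = 4.86e-04) and 0.39 (SE 0.08, adjusted p = 0.0263), or 2.03-fold, 1.80-fold and 1.31-fold. These were 3 of the 6 member probe sets, all of 1 gene, where 2.14% of all probe sets passed. The 0.39 of 99806_at lost the test without any 1 of 5 of the 6 lungs of time 1, at adjusted p = 0.0708 to 0.123. It passed without C57BL/6J replicate 2 (adjusted p = 0.0437).

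In lungs of time 2 the 3 probe sets did not go the same way. By 97711_at A/J lungs read 7.42, 7.62 and 7.71, against 8.0, 7.94 and 7.89 in C57BL/6J lungs. By 160989_r_at A/J lungs read 8.10, 8.08 and 8.18, against 7.86, 8.28 and 7.65 in C57BL/6J lungs. By 99806_at A/J lungs read 6.92, 6.96 and 6.99, against 6.85, 7.19 and 7.02 in C57BL/6J lungs. Every A/J lung was below every C57BL/6J lung by 97711_at, and the strains overlapped by the others.

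The Npr3 difference by 97711_at was -0.36 (SE 0.11, adjusted p = 0.0466), the 1 member to pass at time 2, where 10.2% of all probe sets passed. It did not pass after the array medians were subtracted (-0.33, adjusted p = 0.0669) or after quantile normalization (-0.30, adjusted p = 0.0902), and it was lost without any 1 of 8 of the 12 lungs (adjusted p = 0.0507 to 0.184). By the others it was 0.19 (adjusted p = 0.494) and -0.06 (adjusted p = 0.623). The change of the strain difference between the times was -1.21 by 97711_at (SE 0.15, adjusted p = 0.0147), -0.83 by 160989_r_at (SE 0.26, adjusted p = 0.157) and -0.45 by 99806_at (SE 0.12, adjusted p = 0.123). The test passed for 1 of 6 members and for 0.177% of all probe sets. Without C57BL/6J replicate 1 of time 1 the change by 160989_r_at passed too (-1.10, adjusted p = 0.0396).

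The difference of Npr3 between the times was uneven over its probe sets and strains. In lung, time 2 minus time 1 was -1.20 by 97711_at (SE 0.18, adjusted p = 3.34e-04) and -0.37 by 99806_at (SE 0.08, adjusted p = 0.0049), and -0.12 by 160989_r_at (SE 0.17, adjusted p = 0.61), which did not pass. These values average the strains. By 160989_r_at the mean was 8.12 at time 2 against 8.66 at time 1 in A/J lungs, but 7.93 against 7.63 in C57BL/6J lungs. By 97711_at it was 7.58 against 9.38 in A/J lungs and 7.94 against 8.53 in C57BL/6J lungs. By 99806_at it was 6.96 against 7.55 and 7.02 against 7.16. Of the members 2 passed, against 34.7% of all probe sets, and run and time cannot be told apart here. The Gapdh signal for the 3′ end exceeded that for the 5′ end by 1.96, 1.36 and 1.54 in A/J lungs of time 2. It did so by 0.66, 0.93 and 0.91 in those of time 1. In C57BL/6J lungs these values were 1.37, 1.36 and 1.05 at time 2 and 1.08, 0.64 and 0.98 at time 1. The part of RNA degradation in the Npr3 lung values was not tested. Over both times 0 of 6 members passed the lung strain test by limma (1 at an unadjusted p below 0.05), where 5.22% of all probe sets passed. Npr3 by 160989_r_at was nearest at 0.61 (SE 0.17, adjusted p = 0.0552), and it passed without C57BL/6J replicate 1 of time 1 or replicate 2 of time 2 (adjusted p = 0.0319 and 0.0123).

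**Figure D4:**
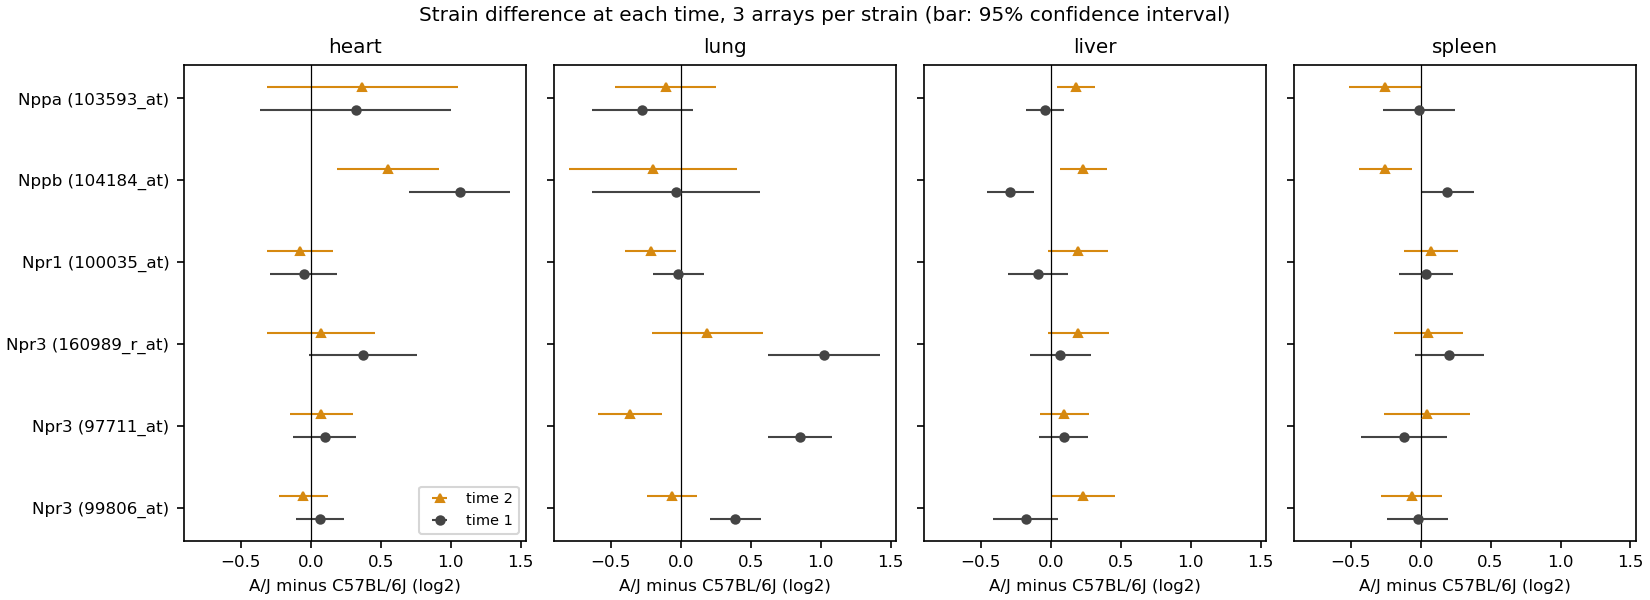
A/J minus C57BL/6J on the log2 scale (horizontal axes) for the 6 probe sets (rows) in each tissue (panels), at time 2 (orange triangles) and time 1 (grey circles). Points are limma estimates from 3 arrays per strain and bars are 95% confidence intervals. Nppb lies to the right of 0 in heart at both times (0.55 and 1.06), and Npr3 by 97711_at lies at -0.36 and 0.85 in lung.

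Cell type markers of the lungs of time 1 are given beside the Npr3 values. Of 8 endothelial markers, 1 passed the strain test at time 1, where 2.14% of all probe sets passed. That was Vwf, the clotting factor carrier, which was lower in A/J at -0.74 (SE 0.11, adjusted p = 0.0017). At an unadjusted p below 0.05 there were 5, the others being Kdr (0.26), Tie1 (0.26), Eng (0.16) and Emcn (-0.37). The mean of the list was 11.46 to 11.55 in A/J lungs and 11.46 to 11.64 in C57BL/6J lungs of time 1. Of 5 hepatocyte markers 0 passed by limma, with 4 at an unadjusted p below 0.05, and their mean was 9.62 to 10.14 in A/J lungs and 8.45 to 9.64 in C57BL/6J lungs of time 1, against 7.86 to 8.37 in all 6 lungs of time 2. The part of liver RNA in the Npr3 values was not tested.

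In heart Npr3 did not pass the strain test. By 160989_r_at the levels were 7.07, 7.25 and 6.34 in A/J hearts and 6.85, 6.71 and 6.87 in C57BL/6J hearts at time 2, and 7.08, 6.85 and 7.11 in A/J hearts and 6.5, 6.87 and 6.55 in C57BL/6J hearts at time 1. The difference was 0.22 (SE 0.13, adjusted p = 0.379). The A/J heart with 6.34 is the one low in Myl7 and Nppa. Without it the difference was 0.36 (adjusted p = 0.0106), and without the 2 hearts lowest in Myl7 it was 0.34 (adjusted p = 0.0245). By 97711_at and 99806_at the strain differences were 0.09 and 0.01, and 97711_at was lower in hearts at time 2 than at time 1 by -0.26 (SE 0.07, adjusted p = 0.0135).

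Npr1, the cyclase receptor of both peptides, showed the narrowest range. Its levels ran from 5.48 to 6.00 in heart, 5.42 to 5.87 in lung, 5.44 to 6.01 in liver and 5.45 to 5.78 in spleen, near the lower end of all deposited values (4.25 to 14.72). All tissues overlapped. Heart passed against no tissue, with differences of 0.07 from lung, -0.09 from liver and 0.04 from spleen. Lung minus liver was -0.16 (SE 0.05, adjusted p = 0.00409) and liver minus spleen 0.13 (SE 0.05, adjusted p = 0.0194), and both were lost with quantile normalization (adjusted p = 0.187 and 0.193). The strain difference of Npr1 was -0.07 in heart, -0.12 in lung, 0.05 in liver and 0.06 in spleen, and none passed. The files give no detection call, so these levels have no known distance from background.

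Outside heart and lung the members moved little. In liver and in spleen 0 of 6 passed the strain test by limma (0 at an unadjusted p below 0.05 in either), where 4.07% and 12.7% of all probe sets passed. In liver the Nppb strain difference changed between the times. At time 2 Nppb read 7.91, 7.97 and 8.12 in A/J livers, against 7.83, 7.77 and 7.71 in C57BL/6J livers. At time 1 it read 7.99, 7.98 and 7.86 in A/J livers, against 8.20, 8.32 and 8.17 in C57BL/6J livers. The strains did not overlap at either time, with A/J above at time 2 and below at time 1.

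The liver difference was 0.23 (adjusted p = 0.0672) at time 2 and -0.29 (adjusted p = 0.0699) at time 1, and its change was 0.52 (SE 0.11, adjusted p = 0.0197), for 1 of 6 members and 4.9% of all probe sets. At the single times 0 of 6 members passed in liver by limma (2 at time 2 and 1 at time 1 at an unadjusted p below 0.05), where 12.9% of all probe sets passed at time 2 and 2.93% at time 1. These levels lie where the files cannot tell transcript from background. Between times in liver, 2 of 6 members passed, Npr3 by 160989_r_at (-0.30, adjusted p = 0.00396) and Npr1 (-0.22, adjusted p = 0.0335), against 50.3% of all probe sets. The Npr1 difference was lost without any 1 of 6 of the 12 livers (adjusted p = 0.0626 to 0.0815). In spleen 0 of 6 passed by limma (0 at an unadjusted p below 0.05), against 31.9%.

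Nppb in spleen went the other way from liver without passing. At time 2 it read 7.70, 7.51 and 7.71 in A/J spleens, against 8.0, 7.95 and 7.72 in C57BL/6J spleens. At time 1 it read 8.0, 7.95 and 7.98 in A/J spleens, against 7.79, 7.82 and 7.76 in C57BL/6J spleens. The strains did not overlap at either time, with A/J below at time 2 and above at time 1. The change of the strain difference was -0.44 (SE 0.12, adjusted p = 0.111), and without C57BL/6J replicate 3 of time 2 it was -0.53 and passed (adjusted p = 0.0390). It passed for 0 of 6 members by limma (1 at an unadjusted p below 0.05) and for 0.209% of all probe sets. At the single times 0 of 6 passed in spleen by limma (1 at each time at an unadjusted p below 0.05), where 16% of all probe sets passed at time 2 and 2.91% at time 1.

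Genes of the pathway were read by their brightest probe sets, and 53 genes in 7 lists were measured in heart. Of the 10 stretch and fetal-programme genes, 4 were higher and 1 was lower in A/J hearts, where 7.48% of all probe sets passed. The median difference of the list was 0.14, against 0.00 over all probe sets. Ankrd1, the cardiac ankyrin repeat protein that load induces, was higher by 0.63 (SE 0.11, adjusted p = 0.00254). It read 13.66, 13.55 and 13.44 in A/J hearts and 13.19, 13.04 and 13.07 in C57BL/6J hearts at time 2, and 13.35, 13.63 and 13.64 in A/J hearts and 12.33, 12.74 and 13.10 in C57BL/6J hearts at time 1. As for Nppb, the strains did not overlap at either time.

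Acta2, smooth muscle actin, was higher in A/J hearts by 1.03 (SE 0.14, adjusted p = 2.59e-04), Acta1, skeletal muscle actin, by 1.08 (SE 0.20, adjusted p = 0.00374), and Xirp1, an actin-binding protein of the intercalated disc, by 0.33 (SE 0.09, adjusted p = 0.0333). Acta1 read 14.26 to 14.33 in A/J hearts, near the top of the scale, and 12.36 to 13.95 in C57BL/6J hearts, so its difference has no exact size. Actc1, cardiac actin, was lower by -0.35 (SE 0.06, adjusted p = 0.00185), and its levels of 13.80 to 14.49 were also near the top. Its probe set has the suffix f_at, and whether it reads Actc1 alone was not tested. It read 11.06 to 12.45 in lungs, 9.91 to 10.63 in spleens and 8.99 to 9.50 in livers. The beta myosin gene Myh7 stood at -0.06 by its brightest probe set and did not pass, nor did Myh6, Csrp3 or Fhl1. A less bright Myh7 probe set stood at -0.40 (SE 0.16, adjusted p = 0.157) and did not pass either. Both Myh7 probe sets have the suffix f_at too, and whether they read Myh7 alone was not tested.

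**Figure D5:**
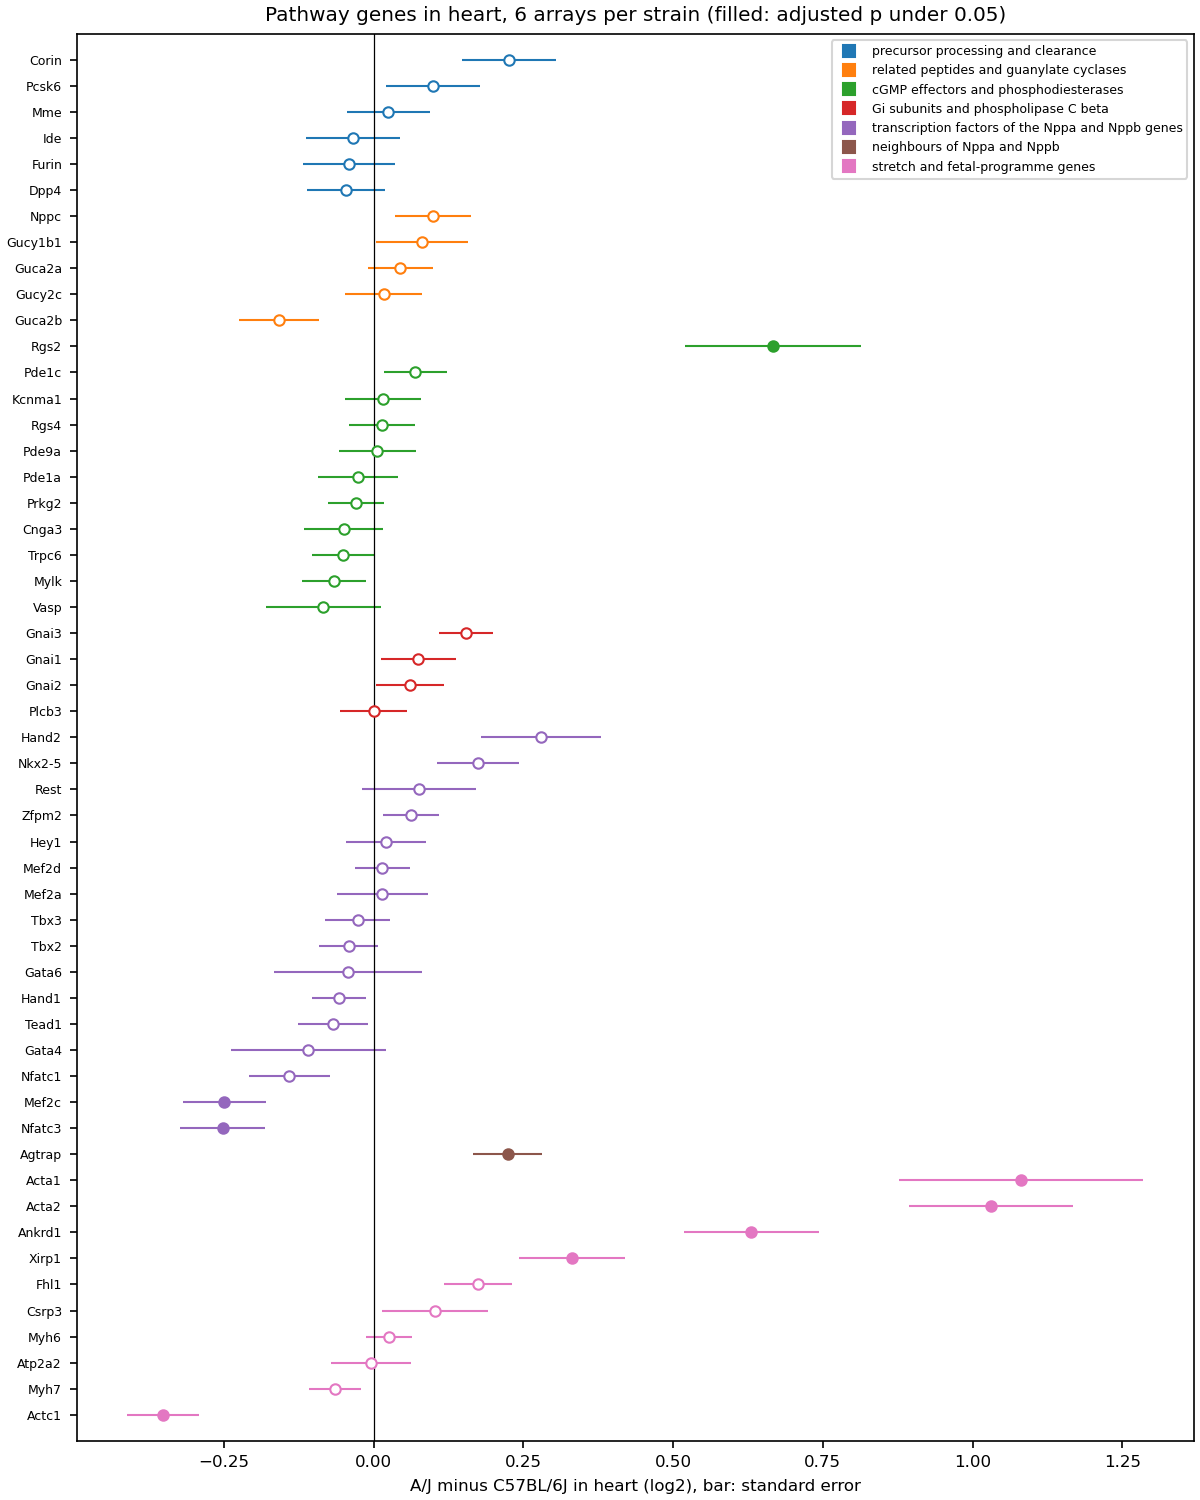
A/J minus C57BL/6J in heart on the log2 scale (horizontal axis) for 53 pathway genes (rows) with standard errors as bars, 6 arrays per strain. Colours are the 7 lists and filled points passed the test. Acta2 lies at 1.03, Rgs2 at 0.67 and Ankrd1 at 0.63. Acta1 is drawn at 1.08, but its A/J hearts are near the top of the scale, so its place in this order is not exact.

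Genes that process or remove the peptides did not pass between strains. Of 6 measured genes of this list 0 passed in heart by limma, with 1 at an unadjusted p below 0.05. That was Corin, the heart protease that cuts the Nppa precursor, at 0.23 (SE 0.08, adjusted p = 0.108). Corin read 10.35, 10.16 and 10.13 in A/J hearts and 10.01, 10.34 and 9.86 in C57BL/6J hearts at time 2, and 10.55, 10.51 and 10.44 in A/J hearts and 10.11, 10.35 and 10.13 in C57BL/6J hearts at time 1. The strains overlapped at time 2 and did not at time 1. Furin, which cuts the Nppb precursor, stood at -0.04, and Pcsk6, a related protease that activates Corin, at 0.10. Corin exceeded lung by 3.45, liver by 3.63 and spleen by 3.72 in heart (SE 0.06, adjusted p = 3.41e-37, 1.20e-38 and 1.24e-38), so it shared the heart pattern of the peptides.

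Downstream of the cyclase, Rgs2, a brake on Gq signalling and a target of the cGMP kinase, was the 1 gene of 11 measured cGMP effectors and phosphodiesterases to pass in heart, a count near the background of 7.48%. It read 8.59, 8.83 and 8.62 in A/J hearts and 8.43, 8.32 and 8.44 in C57BL/6J hearts at time 2, and 8.82, 9.23 and 9.33 in A/J hearts and 7.86, 8.48 and 7.89 in C57BL/6J hearts at time 1. The difference was 0.67 (SE 0.15, adjusted p = 0.0112) and the strains did not overlap at either time. Of 5 related peptides and guanylate cyclases and of 4 Gi subunits and phospholipase C beta genes, which Npr3 is known to engage, 0 passed in heart by limma, with 1 at an unadjusted p below 0.05 in each. These were Guca2b, uroguanylin, at -0.16 (adjusted p = 0.198), and Gnai3 at 0.15 (adjusted p = 0.0519). Nppc, the C-type natriuretic peptide, stood at 0.10 (adjusted p = 0.433).

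Of 16 measured transcription factors of the peptide genes, 2 were lower in A/J hearts, a count near the background of 7.48%. These were Mef2c at -0.25 (SE 0.07) and Nfatc3 at -0.25 (SE 0.07), both with an adjusted p of 0.042. Nkx2-5 and Hand2, which act on the peptide genes in heart development, stood at 0.17 (SE 0.07, adjusted p = 0.163) and 0.28 (SE 0.10, adjusted p = 0.116) and did not pass. Nkx2-5 was higher in heart than in lung by 2.00, than in liver by 1.92 and than in spleen by 1.64. Of 6 listed genes near Nppa and Nppb on chromosome 4, 1 was measured, Agtrap, a protein that binds the angiotensin receptor, and it was higher in A/J hearts by 0.22 (SE 0.06, adjusted p = 0.0283).

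Between times in heart, 6 of the transcription factors rose and 2 fell, where 34.9% of all probe sets passed. Nfatc3 was higher at time 2 by 0.52, Rest, a repressor of the peptide genes, by 0.51, Mef2c by 0.44 and Mef2a by 0.37, and Tbx3, a T-box repressor, was lower by -0.32. Ide, a protease that breaks down atrial natriuretic peptide, was lower by -0.31 (adjusted p = 0.0081).

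Read by their brightest probe sets, 2 of the 53 pathway genes passed the strain test in lung. Of all probe sets 5.22% passed, so the count is no more than the background. Ankrd1 read 10.41, 10.32 and 10.68 in A/J lungs and 8.67, 8.67 and 9.53 in C57BL/6J lungs at time 2, and 9.25, 9.96 and 9.70 in A/J lungs and 8.07, 8.20 and 9.15 in C57BL/6J lungs at time 1. It was higher in A/J by 1.34 (SE 0.20, adjusted p = 9.57e-04), and the strains did not overlap at either time. Mef2c was lower by -0.36 (SE 0.07, adjusted p = 0.00659). Myh7 did not pass in lung by its brightest probe set (-0.07, SE 0.07, adjusted p = 0.646). The less bright Myh7 probe set, which is outside this count, was higher in A/J lungs by 1.08 (SE 0.09, adjusted p = 7.86e-06). The Myh7 probe sets, both with the suffix f_at, thus differ in lung, and the reason was not tested. Myl7 was higher in A/J lungs too, by 0.65 (SE 0.17, adjusted p = 0.0393), with levels of 11.53 to 12.41 in A/J lungs and 10.80 to 11.89 in C57BL/6J lungs. Its part in the Ankrd1 difference was not tested.

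The probe sets most like each member were found by Pearson correlation, given as a description. Over the 16 group means, which share tissue differences, Nppb was nearest to Ckm (r = 0.996), Apobec2, Myom2, Abcc8 and Sh3bgr. Nppa was nearest to Pygm (r = 0.986), Cacna1c, Art3, Ak1 and Hk2. Npr3 by 160989_r_at was nearest to F3 (r = 0.987), Tek, Ogn, Bmp6 and Tie1, by 97711_at to Mid2 (r = 0.967), Tnfaip1, Btbd3, Sema3c and Notch4, and by 99806_at to Btbd3 (r = 0.905), Npr3 by 97711_at (r = 0.900), Stx3, Sema3c and Acvrl1. Npr1 was nearest to Wbp2 (r = 0.904).

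Over the 12 hearts after the group means were taken off, the order changed. Nppa was then nearest to Myl4 (r = 0.989), Myl7 (r = 0.974), Hsf4, Clic3 and Zc3h15, so the 2 atrial light chains led of all probe sets with 1 symbol. Nppb was nearest to Rnf2 (r = 0.937), Slc38a10, Hspa5, Gal and Hoxa2. Npr3 by 99806_at was nearest to Grn (r = 0.934) and Corin (r = 0.927), by 160989_r_at to Dgka (r = 0.948) and by 97711_at to Cetn3 (r = 0.903), and Npr1 to Nrgn (r = 0.887).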

How the data were processed

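RNA of 48 tissue samples was hybridised to MG-U74Av2 arrays, 1 sample per array. The deposited values are the authors' processed log2 signals. How they were summarised and normalized is not stated in the labels or the file. Of 12488 probe sets, 66 controls were left out. Platform annotation gave 1 symbol for 10833 of the 12422 probe sets used, several for 396 and none listed for 1193. Strain, time and strain by time were fitted within each tissue (12 arrays), and tissues in 1 fit of 48 arrays with a term per group, using lmFit and eBayes of limma 3.58.1 in R 4.3.3, with p-values adjusted by Benjamini-Hochberg across all of them and a threshold of 0.05. No filter on low values was applied, so all 6 member probe sets were tested. Number of arrays limits the precision. A listed gene with several probe sets was read by the brightest on average. The members and lists were chosen with earlier results of these data known. Genes named are the members, listed genes that passed in heart or were among the 4 of their list with the smallest p there, cell type markers, and the 5 probe sets most correlated with each member. The fit was tested on simulated data with 100 changed probe sets of each size: a strain difference of 1 was called in 98% to 100% of them by tissue and one of 0.5 in 84% to 96%, and a strain by time change of 1 in 82% to 96% and one of 0.5 in 27% to 44%. Replicate numbers were not used to pair samples in the main fits, and whether they do so is not known. Same-numbered arrays of the strains deviated together (r above 0.1) in 7 of 24 pairs, those of the times in 8 of 24 and those of the tissues in 14 of 72. Alternatives were other scalings, weights, a level filter, single times or strains, a replicate block and leaving out arrays. Promoters came from RefSeq on GRCm38.p6. Exact or resampled permutation tests (100000 resamples, two-sided) were used for correlations across samples.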

Additional observations from a re-analysis of the deposited data

Results flagged for a closer look

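The strain difference of Nppb depended on tissue, with F = 8.43 over the 4 tissues (limma adjusted p = 0.0022). It was 0.81 in heart and -0.12 to -0.03 in lung, liver and spleen, where Nppb levels have no known distance from background.

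Npr3 by 97711_at in lung had a strain difference that changed by -1.21 between the times (SE 0.15, limma adjusted p = 0.0147), at -0.36 at time 2 and 0.85 at time 1. Its other probe sets had changes of -0.83 and -0.45, which did not pass.

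Nppb in liver had a strain difference that changed by 0.52 between the times (SE 0.11, limma adjusted p = 0.0197), at 0.23 at time 2 and -0.29 at time 1, and neither single value passed. The change passed without any 1 of the 12 livers, at 0.46 to 0.56 (adjusted p = 0.0174 to 0.0498), and was lost with the replicate number as a block (0.0603).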

How the results depend on the processing

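Of 2314 values of the members under alternatives, 2107 kept their direction and side of the threshold, 125 turned their sign without passing on either side, 25 came to pass, 57 ceased to pass and 0 turned their sign with a pass on either side. The heart strain difference of Nppb passed under every alternative run, at 0.69 to 0.88 without single arrays. Where calls changed, the cause was not tested beyond the smaller number of arrays in some fits.

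The 2 hearts lowest in Myl7, chosen after the data were seen, were also the lowest in Nppa. Without them the strain difference was 0.395 for Nppa (adjusted p = 0.0127) and 0.344 for Npr3 by 160989_r_at (0.0245), and the heart time difference of Npr3 by 97711_at was -0.193 (0.0734). The last was -0.229 (0.0651) without the 2 A/J hearts with uneven Gapdh. With array medians subtracted, Npr3 by 97711_at in lungs of time 2 gave -0.328 (0.0669) and Npr1 between times in liver -0.181 (0.0603). With quantile normalization these gave -0.300 (0.0902) and -0.0816 (0.396), Npr3 by 160989_r_at gave 0.610 between strains in lung (0.0440) and -0.162 between times in liver (0.0859), Npr1 gave -0.0692 for lung minus liver (0.187) and 0.0687 for liver minus spleen (0.193), and Nppa gave 0.239 for lung minus spleen (0.0505). The lung strain difference of Npr3 by 160989_r_at passed at 0.875 with array weights (0.00121) and 0.607 with all 48 arrays in the fit (4.27e-04). With time 1 alone it was 1.02 (0.0239), that of 97711_at 0.850 (0.00424) and that of 99806_at 0.390 (0.0158).

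With the replicate number as a block, 5 calls were lost: Nppb strain by time in liver 0.519 (0.0603), Npr1 between times in liver -0.220 (0.0600), and for liver minus spleen Npr1 0.127 (0.0637), Npr3 by 97711_at 0.264 (0.0806) and Npr3 by 99806_at 0.144 (0.0775). Whether the numbers pair samples is not known, and the reason for these losses was not tested. The heart strain difference of Nppb at time 2 came to pass with the block (0.0264).

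With time 2 alone, Npr3 by 99806_at gave 0.136 for heart minus spleen (0.140), -0.0384 for heart minus lung (0.683), 0.0112 for lung minus liver (0.911), 0.174 for lung minus spleen (0.0734) and 0.163 for liver minus spleen (0.0834). Nppa gave 0.369 for lung minus liver (0.0945) and 0.330 for lung minus spleen (0.157), and Npr1 -0.0303 for lung minus liver (0.754) and 0.0748 for liver minus spleen (0.435). With A/J alone, Nppa gave 0.243 for lung minus liver (0.167) and 0.244 for lung minus spleen (0.195), and Npr1 0.124 for liver minus spleen (0.111). With C57BL/6J alone, Npr3 by 99806_at gave -0.117 for heart minus lung (0.197) and 0.109 for liver minus spleen (0.225), Npr1 -0.0745 for lung minus liver (0.359) and 0.131 for liver minus spleen (0.109), and Nppa 0.303 for lung minus spleen (0.0589).

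Without single arrays, calls changed for Nppa lung minus spleen (0.180 to 0.435), Npr1 liver minus spleen (0.0831 to 0.156), Npr1 liver time (-0.262 to -0.180), Npr1 lung minus liver (-0.216 to -0.127), Npr3 by 160989_r_at heart strain (0.160 to 0.362) and lung strain (0.491 to 0.731), Npr3 by 97711_at lung strain at time 2 (-0.426 to -0.281), and Npr3 by 99806_at liver minus spleen (0.0960 to 0.182) and lung strain at time 1 (0.363 to 0.432). Further differences that did not pass came to pass in at least 1 such fit for Nppb in heart strain at time 2 (0.456 to 0.622), liver time (-0.260 to -0.154), spleen strain at time 2 (-0.336 to -0.187), spleen strain by time (-0.526 to -0.376), lung minus liver (-0.201 to 0.169) and lung minus spleen (-0.0464 to 0.357), for Npr3 by 160989_r_at in lung strain by time (-1.10 to -0.661) and for Npr3 by 97711_at in spleen time (-0.280 to -0.133). Differences between tissues were refitted without 1 replicate number of every group.

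Over all probe sets, the 929 strain calls in heart became 438 with time 1 alone and 500 with time 2 alone, and the 584 at time 1 became 148 without the 2 hearts with uneven Gapdh. The 649 in lung became 1307 with array weights, 1097 with 48 arrays and 359 with time 1 alone. The 505 in liver became 963 with 48 arrays, 1260 with time 2 alone and 276 with the replicate block, and the 1580 in spleen became 2686 with 48 arrays and 603 with time 1 alone. With the block the 1598 strain calls of time 2 in liver became 948 and its 609 strain by time calls 319. The 26 strain by time calls in spleen became 16 with medians subtracted, 11 with quantile normalization and 6 with the block. Over the brighter part of the probe sets the time calls were 2416 of 4341 in heart, 2384 of 4312 in lung, 3570 of 6248 in liver and 2074 of 3962 in spleen. Leaving out 1 array moved the strain by time counts to 25 to 102 in heart, 4 to 91 in lung, 229 to 1213 in liver and 0 to 337 in spleen. Leaving out the hearts high in Scgb1a1 was not run, since they include the whole C57BL/6J group of time 1. With no detection call, levels of Npr1 and of Nppb outside heart have no known distance from background.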
